A study of Rattus norvegicus with 2 samples.

Results

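Imprinted genes are read from the copy inherited from a single parent, and several of them have been tied to the timing of puberty. The 10 such genes examined here in the rat hypothalamus were Mkrn3, Dlk1, Magel2, Ndn, Snrpn, Peg3, Peg10, Nnat, Gnas and Grb10. They were listed by name, with earlier results of these data known. Of the 22353 gene names in the deposited mRNA table, 9 were members, with 12 transcripts between them. Peg10, a retroelement-derived gene, was not listed under this name or under a RefSeq synonym and is not analysed here.

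The samples were hypothalami of female Sprague Dawley rats without any genetic change or treatment. The prepubertal group was taken on postnatal day 25 and the pubertal group on postnatal day 35, with vaginal opening as the mark of puberty. The methods give 3 rats a stage, but the deposited table holds 1 value a stage, so the difference between stages has no replicate check and no p-value is given. Pubertal rats were, by the supplement of the paper, those in their first estrus. Age, stage and phase of the estrous cycle cannot be told apart. Values are FPKM, that is, sequenced fragments scaled to transcript length and library size, and can be compared between genes because they are per length. The spacing of the lowest FPKM values placed the depth at about 20765100 fragments in prepubertal and 16200700 in pubertal tissue. From this depth each FPKM was turned back into an estimated number of fragments, and the 95% intervals below (exact Poisson for a level, exact binomial for a ratio) cover counting error only.

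Imprinting silences either the maternal or the paternal copy through DNA methylation set in the germ line. In the hypothalamus, Mkrn3, which encodes a makorin E3 ubiquitin ligase, acts as a brake on puberty, and loss of the paternal copy of MKRN3 causes central precocious puberty in humans. Loss of DLK1, which encodes a Notch-related membrane protein, has the same outcome. Magel2, Ndn and Snrpn lie with Mkrn3 in the Prader-Willi region, whose loss leads to hypogonadism, overeating and growth hormone deficiency. Gnas, Grb10, Peg3 and Nnat act in hormone signalling, insulin signalling, cell survival and calcium handling.

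The promoters of the 3 neighbouring genes Mkrn3, Magel2 and Ndn are shown because these genes sit next to each other, while Ndn was listed far above both Magel2 and Mkrn3. In the RefSeq gene order Ndn, Magel2, Mkrn3 and Peg12 follow one another on chromosome 1 as protein-coding genes. The windows are the 250 bases before the RefSeq start on build GRCr8, 5′ to 3′ on the strand of the gene. Mkrn3 is at chr1:125341179-125341428 on the minus strand, Magel2 at chr1:125291783-125292032 on the plus strand and Ndn at chr1:125260809-125261058 on the plus strand. Capitals mark matches to any of 5 motifs on either strand, so that some are printed as the reverse complement. ACCGGAAGT is a motif of ETS factors. ATGGCGG is the core of the motif of YY1. GCATGCGC is the core of the motif of NRF1. GGGCGG is known as the GC box. TATAAA is known as the TATA box. No motif overlaps another by its letters in these windows, and the motifs were chosen after the windows had been seen.
Mkrn3: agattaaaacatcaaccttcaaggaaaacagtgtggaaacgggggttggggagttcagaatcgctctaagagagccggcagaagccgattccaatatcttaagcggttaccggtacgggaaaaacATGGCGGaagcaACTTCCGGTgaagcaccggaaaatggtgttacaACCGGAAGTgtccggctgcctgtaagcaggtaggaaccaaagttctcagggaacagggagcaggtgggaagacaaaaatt
Magel2: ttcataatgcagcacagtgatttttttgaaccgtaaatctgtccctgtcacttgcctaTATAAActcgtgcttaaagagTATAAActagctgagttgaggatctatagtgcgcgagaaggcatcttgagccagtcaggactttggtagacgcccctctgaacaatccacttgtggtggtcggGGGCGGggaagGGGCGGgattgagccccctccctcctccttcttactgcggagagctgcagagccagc
Ndn: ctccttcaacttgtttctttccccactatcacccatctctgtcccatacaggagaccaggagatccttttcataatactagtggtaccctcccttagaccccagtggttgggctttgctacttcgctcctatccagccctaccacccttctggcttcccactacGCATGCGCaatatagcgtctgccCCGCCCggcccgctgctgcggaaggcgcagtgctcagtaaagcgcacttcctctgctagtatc

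The Mkrn3 window held 2 copies of ACCGGAAGT and 1 of ATGGCGG. These letters occurred in 0.95% and 2.47% of the 33465 RefSeq promoter windows of the same length. The Ndn window held 1 GCATGCGC, found in 2.20% of all windows, and 1 GGGCGG, found in 30.5%. The Magel2 window held 2 GGGCGG and 2 TATAAA, the latter in 12.9% of all windows. Both TATAAA matches lie in the part of the window away from the start, so they are matches of letters only. GC content was 49.6% for Mkrn3, 51.6% for Magel2 and 55.2% for Ndn, near the median of 51.2% over all windows. All 3 held more CG pairs than the median window of 5, with 12, 9 and 10. Dlk1 and Grb10 had far denser windows, with 41 and 38 CG pairs at 78% and 81.2% GC, and one of the 3 Gnas windows had 32 at 83.2%. These are descriptions of letters, and no binding or methylation was measured in these samples.

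The 9 listed members covered a wide range of levels, and their order was much the same at both stages. Gnas, Nnat and Snrpn ranked 109, 114 and 115 of the 22353 genes by mean FPKM. Ndn ranked 370 and Peg3 475. Grb10 followed at 3014, Dlk1 at 6216, Magel2 at 10620 and Mkrn3 at 12044. The highest member stood 360 times above the lowest by mean FPKM. Together the members took 0.433% of all mRNA FPKM before puberty and 0.407% at puberty. Within each library most neighbours in this order were separated by more than their counting intervals. The exceptions were Snrpn and Nnat, whose intervals overlapped at both stages (871 to 896 and 858 to 885 FPKM before puberty, 881 to 910 and 894 to 925 FPKM at puberty). Gnas was the highest member before puberty (950 to 989 FPKM) and lay below both of them at puberty (835 to 877 FPKM).

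**Figure D1:**
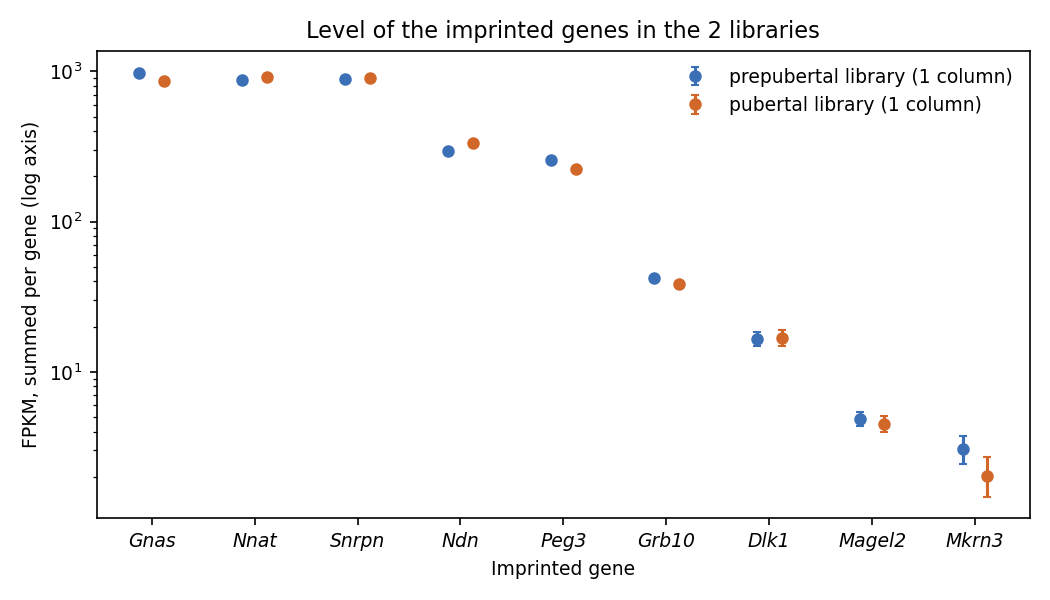
FPKM (log axis) of each listed member in the prepubertal and the pubertal library, with 95% exact Poisson intervals that cover counting error only. The members span Gnas at 969 and 856 FPKM down to Mkrn3 at 3.04 and 2.03 FPKM, and each pair of points lies close together next to this range.

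No member differed by 1.5-fold or more between the stages, where 4.08% of the 13612 genes with a mean FPKM of at least 1 did. This fold was taken on FPKM + 1, which understates differences of low genes. On the same scale 4 members were higher and 5 lower in the pubertal library. Their median log2 ratio, pubertal over prepubertal, was −0.08, beside −0.01 over all genes tested, of which 6668 were higher and 6944 lower. The counting interval of the FPKM ratio lay above 1 for Ndn and Nnat, below 1 for Mkrn3, Peg3, Gnas and Grb10, and held 1 for Magel2, Snrpn and Dlk1. Such an interval lay apart from 1 for 43.5% of the 13576 genes tested with fragments in both libraries (19.7% above and 23.9% below). The share grew with level, from 29.4% of genes at a mean of 1 to 10 FPKM, where Mkrn3 and Magel2 lie, to 49.4% at 10 to 100 FPKM, where Dlk1 and Grb10 lie, and 74.1% at 100 FPKM or more, where the other members lie. An interval of this kind leaves out the spread between rats. In whole tissue, fewer cells of a type and less RNA per cell cannot be told apart.

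**Figure D2:**
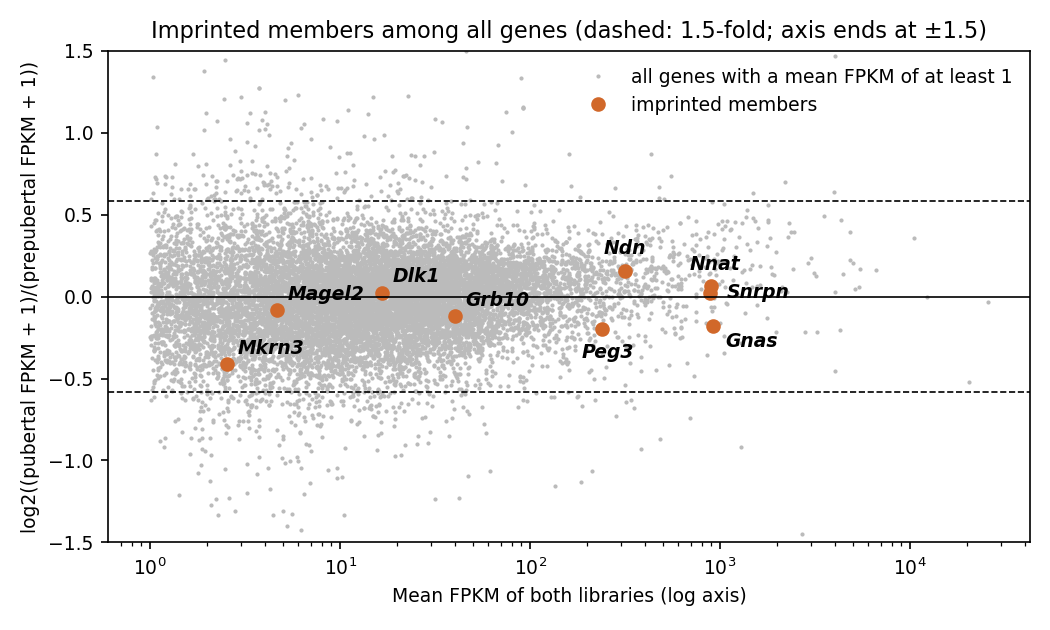
Log2 ratio of FPKM + 1 (pubertal over prepubertal) against mean FPKM (log axis) for all genes with a mean FPKM of at least 1, with the 9 listed members named. Every member lies between the dashed 1.5-fold lines, Mkrn3 the lowest at −0.41 and Ndn the highest at 0.16. The axis ends at a log2 ratio of 1.5 in each direction, which leaves 46 genes outside.

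Mkrn3 showed the widest difference of the members before any rescaling of the libraries. Mkrn3 (ENSRNOG00000010172, 1 transcript of 1587 nt) was at 3.04 FPKM before puberty and 2.03 FPKM at puberty, from about 84 and 44 fragments. The pubertal level was 0.668 of the prepubertal level (interval 0.453 to 0.974), which is −0.41 on the log2 scale of FPKM + 1. Of all genes tested, 6.18% had a log2 ratio as low or lower. The pubertal library was thus the lower of the pair, yet with few fragments the interval reached nearly to 1. At a fold of 1.2, Mkrn3 was the single member to be counted, where 26.5% of all genes passed in either direction and 15.3% were lower. At 2-fold no member passed, beside 0.911% of all genes. The prepubertal interval (2.43 to 3.77 FPKM) and the pubertal interval (1.48 to 2.73 FPKM) overlapped. With the pubertal library scaled to equal Actb, Mkrn3 was at −0.13, the smallest difference of the members, and not past 1.2-fold. Ndn (0.56), Nnat (0.47), Snrpn (0.42), Dlk1 (0.41) and Grb10 (0.28) were then higher past it, on a scale that moves all genes up. The share of all genes past 1.2-fold on that scale was not computed.

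Magel2 (ENSRNOG00000010158, 3777 nt), which encodes a MAGE protein that guides ubiquitin ligases in endosomal sorting, was at 4.83 FPKM before puberty and 4.50 FPKM at puberty. The ratio was 0.931 (0.790 to 1.1) from about 353 and 257 fragments. A difference was not detectable for Magel2 at this depth.

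Ndn (ENSRNOG00000010146, 1615 nt) encodes necdin, a MAGE protein of post-mitotic neurons. It stood at 297 FPKM before puberty and 331 FPKM at puberty, a ratio of 1.12 (1.08 to 1.15). Its counting intervals did not overlap (290 to 303 and 324 to 339 FPKM), with the pubertal library higher. Ndn was 61.5 times the level of its neighbour Magel2 before puberty and 73.7 times at puberty. Against Mkrn3 the same quotients were 97.6 and 163. Ndn thus stood apart from its neighbours within each library, whereas Magel2 and Mkrn3 were both low (4.83 and 3.04 FPKM before puberty, 4.50 and 2.03 FPKM at puberty).

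Snrpn (ENSRNOG00000015976, 1333 nt) encodes a core protein of spliceosomal particles, and its transcript also carries the Snurf reading frame, which the table did not list apart. Snrpn was at 884 FPKM before puberty and 895 FPKM at puberty, a ratio of 1.01 (0.992 to 1.04). Even with about 19743 and 15696 fragments, a difference was not detectable beyond counting error. Snrpb, the close relative of Snrpn on another locus, was at 47.1 and 55.9 FPKM. Fragments of Snrpn and Snrpb could be shared where their sequences match. How far this affects the level of each was not tested.

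Dlk1 (ENSRNOG00000019584, 1239 nt) was at 16.5 FPKM before puberty and 16.8 FPKM at puberty, from about 337 and 269 fragments. The ratio of 1.02 (0.863 to 1.2) held 1, and the intervals of the levels nearly coincided (14.8 to 18.4 and 14.9 to 18.9 FPKM). Differences between the stages larger than these bounds would have exceeded the counting error.

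Peg3 (ENSRNOG00000014791) encodes a zinc finger protein expressed from the paternal copy. Both of its listed transcripts were lower at puberty. The transcript of 4683 nt, which carried 96.2% of the Peg3 level in each library, was at 246 FPKM before puberty and 214 FPKM at puberty. The transcript of 3582 nt was at 9.75 and 8.46 FPKM. The gene summed to 256 and 222 FPKM, a ratio of 0.871 (0.853 to 0.888). Peg3 lay in the longest of 10 length classes of genes, whose median log2 ratio was −0.13, and its own was −0.20.

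Nnat (ENSRNOG00000024923) encodes neuronatin, a small membrane protein of the endoplasmic reticulum. Its transcripts differed by 81 nt in listed length. The transcript of 1137 nt was at 484 FPKM before puberty and 480 FPKM at puberty. The transcript of 1218 nt was at 388 and 429 FPKM, so that its share of the Nnat level went from 44.5% to 47.2%. The gene summed to 871 and 909 FPKM, a ratio of 1.04 (1.02 to 1.07). How Cuffdiff divides fragments between such similar transcripts adds an error that the interval does not hold.

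Gnas encodes the stimulatory G protein subunit and, from other promoters, further products of opposite imprinting. It was listed under 2 gene identifiers with short transcripts, and the table does not say which product each represents. The transcript of 720 nt (ENSRNOG00000047374) was at 950 FPKM before puberty and 839 FPKM at puberty. The transcript of 771 nt (ENSRNOG00000025889) was at 19 and 16.8 FPKM. Both were lower at puberty, and the sum went from 969 to 856 FPKM, a ratio of 0.883 (0.855 to 0.912).

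Grb10 (ENSRNOG00000004290, 4996 nt) encodes an adaptor that dampens insulin and IGF1 receptor signals, and in neurons it is read from the paternal copy. It was at 41.8 FPKM before puberty and 38.4 FPKM at puberty, a ratio of 0.918 (0.875 to 0.963). Like Peg3, Grb10 is in the longest length class, and its log2 ratio of −0.12 became 0.01 once each class was centred on its own median, a step chosen after the data had been seen.

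Differences this small can change sign with the scale. Of 7 alternatives, 4 could change the value of a gene with a single transcript, and Mkrn3 kept its sign in these (−0.56 to −0.13), as did Ndn (0.11 to 0.56). Scaling the pubertal library to equal Actb moved the ratios of all genes upward by up to about 0.41 on the log2 scale. By construction this turns small negative ratios positive, and it took Magel2 to 0.25, Peg3 to 0.20, Gnas to 0.23 and Grb10 to 0.28. Centring by length turned Dlk1 and Snrpn to −0.03 each and Nnat to −0.02.

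**Figure D3:**
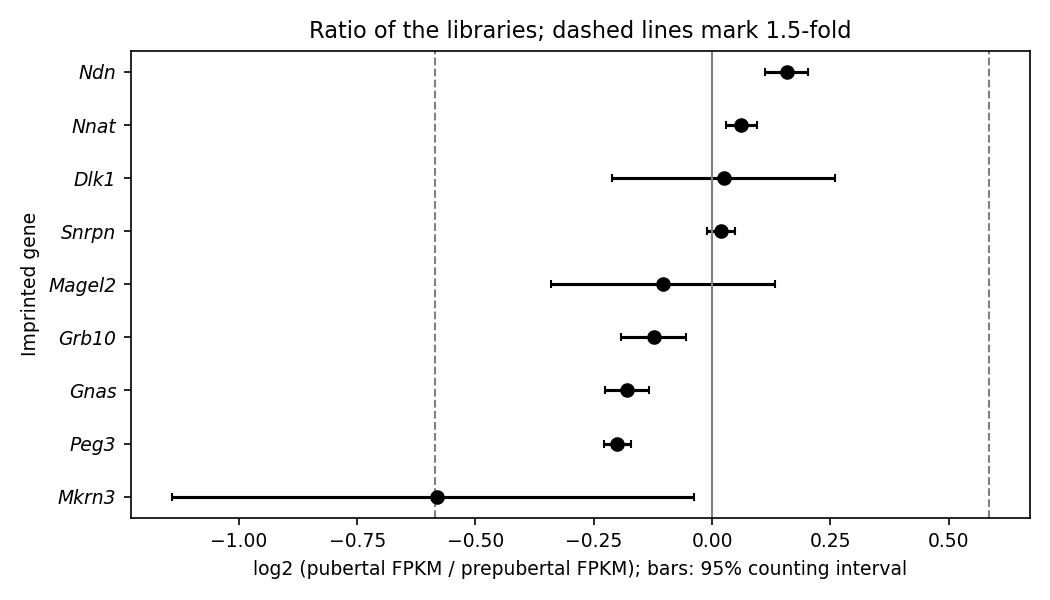
Log2 of the FPKM ratio (pubertal over prepubertal, no value added to FPKM) of each listed member, with 95% counting intervals as bars, a solid line at 0 and dashed lines at 1.5-fold. Mkrn3, at a ratio of 0.668, lies beside the dashed line with the widest interval, Ndn and Nnat lie above 0, and the intervals of Magel2, Snrpn and Dlk1 span 0.

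Near Dlk1, the maternal copy gives rise to long noncoding RNAs that carry microRNA hairpins. Meg3, Rian and Mirg were not listed by name. Exact RefSeq hairpins were therefore searched in the deposited lncRNA sequences. One locus, XLOC_376361, held such hairpins of the Dlk1 region. Its transcript TCONS_00438597 (11098 nt) contained Mir379, Mir411, Mir299, Mir380, Mir323, Mir758, Mir329, Mir495 and Mir667 on its own strand, all placed by RefSeq on chromosome 6 with Dlk1. Their hairpins start between base 1146 and base 9898 of the transcript. Mature sequences from hairpins along the transcript are shown from RefSeq, 5′ to 3′, because they identify the locus. Capitals mark the seed, bases 2 to 8.
rno-miR-379-5p: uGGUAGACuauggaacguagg
rno-miR-411-5p: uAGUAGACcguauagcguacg
rno-miR-323-3p: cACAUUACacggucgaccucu
rno-miR-495: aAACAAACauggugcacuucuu
rno-miR-667-3p: uGACACCUgccacccagcccaa

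No seed was shared among the 17 mature sequences of these hairpins. TCONS_00438597 was at 1.45 FPKM before puberty and 3.05 FPKM at puberty, from about 327 and 537 fragments. The pubertal level was 2.1 times the prepubertal level (1.83 to 2.42), or 0.72 on the log2 scale of FPKM + 1. Of 327 lncRNAs of at least 1000 nt with a mean FPKM of at least 1, 8.56% were higher by 1.5-fold or more. The locus held further transcripts of 13394 nt (2.23 and 2.86 FPKM) and 13914 nt (4.32 and 5.49 FPKM). How fragments are divided among transcripts of the same locus is an estimate by Cuffdiff. All 3 were higher at puberty, and the locus summed to 8.0 and 11.4 FPKM, a ratio of 1.42 (1.34 to 1.51). Dlk1, on the other parental copy, had a ratio of 1.02, and Rtl1, a retroelement-derived gene of the same cluster, went from 12.5 to 15.1 FPKM (ratio interval 1.11 to 1.31). Levels of the mature microRNAs were not measured.

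**Figure D4:**
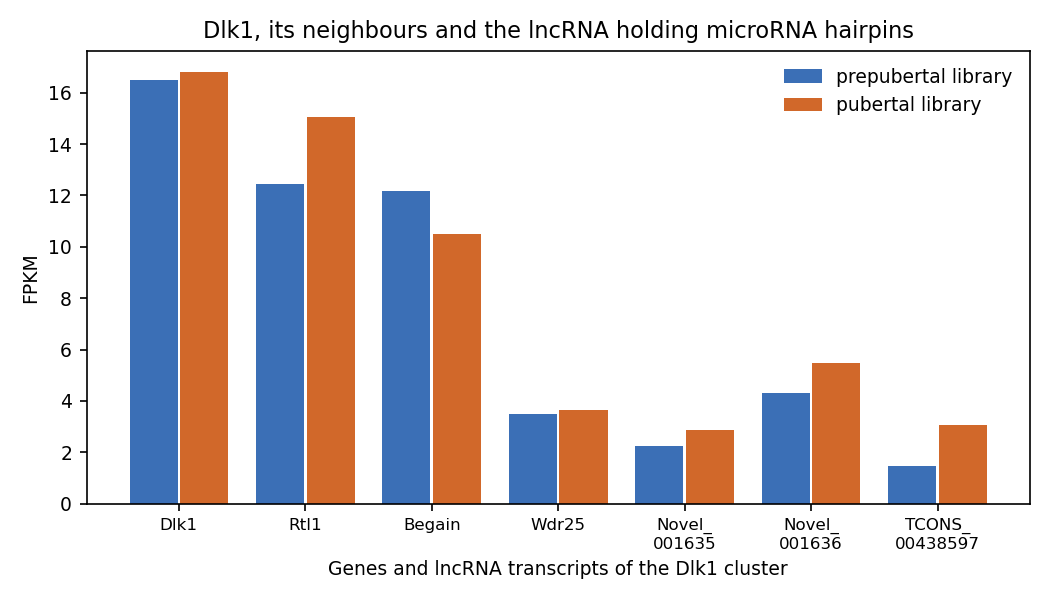
FPKM in the prepubertal and the pubertal library (1 bar each, no replicates) for Dlk1, its neighbours Rtl1, Begain and Wdr25, and the 3 lncRNA transcripts of the locus that holds the hairpins. Dlk1 is level at 16.5 and 16.8 FPKM, while each lncRNA transcript is higher at puberty, TCONS_00438597 at 1.45 and 3.05 FPKM.

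Genes around the members were counted first by RefSeq order, up to 3 protein-coding genes on each side, a count added after the data had been seen. Of 45 such neighbours, 25 had a mean FPKM of at least 1, of which 14 were higher and 11 lower, with a median log2 ratio of 0.02. Past 1.5-fold were 1 higher, Ddc next to Grb10, and 1 lower, Col1a2 near Peg10. Col1a2, a collagen chain of fibroblasts and one of the 7 fibroblast and meninges markers, was at 15.8 FPKM before puberty and 8.76 FPKM at puberty (ratio 0.556, 0.504 to 0.612). Of 58 neighbours on a separate list for the imprinted clusters, which does not hold Col1a2, 51 were listed and 41 had a mean FPKM of at least 1, of which 26 were higher and 15 lower. Several of them, such as Ube3a, Rtl1 and Blcap, also count among the other imprinted genes below. The median log2 ratio of the neighbour list was 0.02. Ddc, which encodes the decarboxylase that makes dopamine and serotonin and lies next to Grb10, was the single gene of this list past 1.5-fold, at 30.6 FPKM before puberty and 46.5 FPKM at puberty (ratio 1.52, 1.39 to 1.65). Genes higher by this fold made up 1.75% of all genes tested, and genes lower by it 2.33%.

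The counts and orders by cluster and by list that follow are of genes with a mean FPKM of at least 1. Around Mkrn3, Magel2, Ndn and Snrpn, 6 of 10 neighbours were higher and 4 lower. Ube3a, the ubiquitin ligase lost in Angelman syndrome and silenced on the paternal copy in neurons, was at 58.8 and 61.2 FPKM. Herc2 was the lowest by ratio (49.5 and 42.0 FPKM) and Atp10a the highest (4.06 and 4.83 FPKM). Near Dlk1, 4 of 6 neighbours were higher, and Begain went from 12.2 to 10.5 FPKM. Both neighbours of Peg3 were slightly higher, Usp29 at 68.6 and 73.0 FPKM and Zim1 at 6.95 and 7.04 FPKM.

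Around the missing Peg10, 12 neighbours of the list were listed and 8 had a mean FPKM of at least 1, of which 6 were higher. Col1a2, outside that list, was lower. Among these 8, Pon2 was the highest by ratio (16.1 and 21.1 FPKM) and Ppp1r9a the lowest (43.4 and 38.3 FPKM). Of the low neighbours, Pon3 was at 0.927 and 0.206 FPKM. Sgce, which shares a promoter region with Peg10 and encodes a sarcoglycan, was at 25.4 and 28.5 FPKM. Blcap, the host of Nnat, was at 62.5 FPKM before puberty and 53.6 FPKM at puberty, among 3 lower and 1 higher neighbours of Nnat, the latter Ctnnbl1 at 26.5 and 32.4 FPKM. The Gnas neighbours numbered 5 higher and 2 lower, with Edn3 at 1.1 and 1.78 FPKM from about 11 and 14 fragments, Ctsz at 15.5 and 19.5 FPKM and Stx16 at 17.7 and 14.6 FPKM. The Grb10 neighbours at this level numbered 2 higher and 2 lower, with Cobl the lowest of them by ratio at 4.39 and 3.64 FPKM.

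Of 47 other imprinted genes on the lists, 36 were listed and 27 had a mean FPKM of at least 1. Of these, 11 were higher and 16 lower, with a median log2 ratio of −0.09. They are split by the copy that their list gives as expressed, while no allele was measured in these samples. The paternally expressed ones had 5 higher and 6 lower, and none past 1.5-fold. The maternally expressed ones had 6 higher and 10 lower, with 2 lower past 1.5-fold, beside 2.33% of all genes tested. Cdkn1c, the cell cycle inhibitor p57, was at 8.91 FPKM before puberty and 4.32 FPKM at puberty (ratio 0.485, 0.389 to 0.602). Its transcript of 1870 nt was at 6.95 and 2.63 FPKM and that of 2041 nt at 1.96 and 1.69 FPKM. The interval does not cover how Cuffdiff divides fragments between them. Slc22a3, a transporter of organic cations and monoamines, was at 3.43 and 1.74 FPKM (ratio 0.506, 0.393 to 0.648). Both were the lowest of these genes by ratio, although the interval of Mkrn3 overlaps theirs. With the pubertal library scaled to equal Actb the count became 3 higher (Commd1, Rtl1 and Zrsr1) and 0 lower, where 16.3% of all genes were higher by that fold and 0.646% lower. Beside these values stand the 7 markers of fibroblasts and meninges, which summed to 75.9 FPKM before puberty and 44.7 FPKM at puberty and were all lower, and their part in the differences was not tested.

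On the paternally expressed list, Igf2, a growth factor, was at 27.1 and 21.3 FPKM. Mest was at 76.0 and 62.1 FPKM. Zrsr1 was at 55.8 and 68.0 FPKM, and Impact, a regulator of translation in neurons, at 425 and 479 FPKM. Commd1, whose intron hosts Zrsr1, was the highest of the maternally expressed genes by ratio, at 89.6 and 119 FPKM. In that pair of overlapping genes both were higher at puberty.

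**Figure D5:**
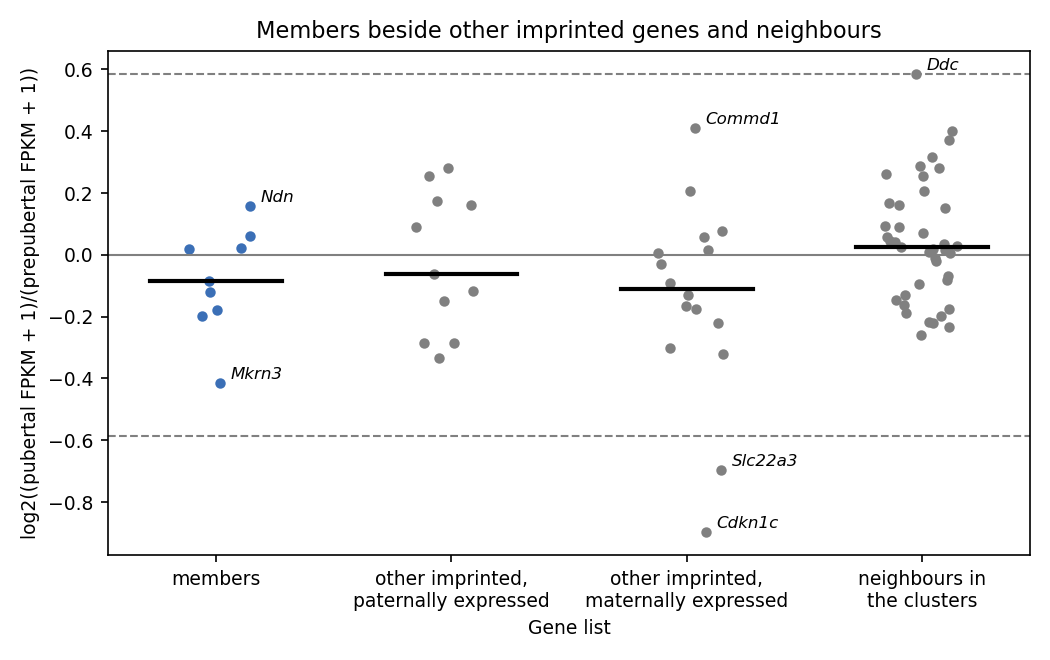
Log2 ratio of FPKM + 1 (pubertal over prepubertal) of each gene with a mean FPKM of at least 1 among the members, the other imprinted genes by expressed copy, and the listed cluster neighbours (Col1a2 is not among them); points are genes, thick bars are medians and dashed lines mark 1.5-fold. Cdkn1c and Slc22a3 lie below the lower line and Ddc just past the upper one, with all members between them. The expressed copy is that of the list, no allele was measured, and some genes appear both as imprinted and as neighbours.

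The makorin list held Mkrn3, its relatives, and its known substrates with genes related to these, such as Nptxr beside Nptx1. Of 9 genes, Mkrn3 included, 3 were higher and 6 lower, none past 1.5-fold. Mkrn1 was at 50.1 and 51.4 FPKM and Mkrn2 at 23.9 and 24.6 FPKM, and their ratio intervals (0.943 to 1.12 and 0.939 to 1.14) held 1 and overlapped that of Mkrn3. Nptxr, the receptor of neuronal pentraxins, was at 50.7 and 34.0 FPKM and Pabpc1, the cytoplasmic poly(A) binding protein, at 23.6 and 17.1 FPKM. Nptx1, a pentraxin at synapses that Mkrn3 ubiquitinates, was at 12.8 and 13.5 FPKM.

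Partners of Magel2 and Ndn had 2 higher and 6 lower of 8 genes. Maged1 was at 174 and 170 FPKM, Magee1 at 51.4 and 41.2 FPKM, and Trim27, a ubiquitin ligase bound by Magel2, at 19.8 and 23.2 FPKM. Among the Sm core proteins that assemble with Snrpn, 4 of 6 genes were higher and 2 lower, and Snrpd3 was lower past 1.5-fold (35.4 and 20.8 FPKM). Its ratio interval of 0.403 to 0.856 was wide for its level.

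The Notch list, for Dlk1, had 12 of 14 genes lower, beside 6944 of all 13612 genes tested, and a median log2 ratio of −0.14. Jag1, a Notch ligand, was the single one past 1.5-fold, at 5.01 FPKM before puberty and 3.0 FPKM at puberty (ratio interval 0.514 to 0.695). Genes lower by this fold made up 2.33% of all genes tested. Notch3, a receptor of vessel walls, was at 2.89 and 1.88 FPKM. Hes1, a target of Notch, was at 5.69 and 6.27 FPKM with an interval that held 1 (0.857 to 1.42). The Gs and cAMP list, for Gnas, likewise had 12 of 15 genes lower, none past 1.5-fold, with a median of −0.17. The adenylyl cyclases Adcy1 (31.9 and 23.2 FPKM) and Adcy6 (11.1 and 8.25 FPKM) were its lowest by ratio, and Mc4r, the melanocortin receptor of appetite control, was at 1.62 and 2.06 FPKM (0.701 to 2.31). On the Actb scale, which moves genes up by as much as about 0.41, the medians were 0.21 and 0.16. The longest of 10 length classes of genes had a median of −0.13, and the part of length in these lists was not tested.

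Insulin and IGF1 signalling, for Grb10, had 5 higher and 6 lower of 11 genes. Grb14, the relative of Grb10 with the same brake function, was at 7.50 and 10.8 FPKM (1.22 to 1.71). The receptors were at 6.50 and 6.99 FPKM for Insr and at 5.36 and 4.41 FPKM for Igf1r, and Irs1 was at 3.76 and 2.56 FPKM. Of the calcium pump partners of Nnat, 1 was higher and 2 lower of 3, with Atp2a2 at 311 and 261 FPKM and Pln at 1.21 and 1.76 FPKM from about 6 and 7 fragments. Of the retroelement-derived relatives and partners of Peg10 and Peg3, 2 were higher and 1 lower of 3, the latter Siah1 at 24 and 20.7 FPKM. Zcchc16 was higher past 1.5-fold, at 2.74 and 5.09 FPKM from about 37 and 54 fragments (1.2 to 2.9).

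The remaining puberty genes had 7 higher and 2 lower of 9. Kiss1, which drives GnRH neurons, was higher past 1.5-fold from about 12 and 26 fragments (1.21 to 5.39). Tac3, the neurokinin B gene, was at 20.8 and 24.3 FPKM (0.954 to 1.44). Gnrh1 was at 8.46 and 6.28 FPKM (0.416 to 1.29). Lin28b, a heterochronic RNA binding protein, summed to 8.45 and 2.76 FPKM. That difference lay in a transcript of 288 nt, near the fitted fragment length, whereas its transcript of 816 nt was at 1.47 and 1.79 FPKM from about 17 and 16 fragments.

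Markers of the tissue differed between the libraries as well. Of 14 hypothalamic markers all were listed, and their summed FPKM was 2693 before puberty and 4098 at puberty. Of the 13 with a mean FPKM of at least 1, 10 were higher, 2 of them past 1.5-fold, and 3 lower (Avp, Nkx2-1 and Otp). Pmch, at 1675 and 2723 FPKM, and Oxt, at 411 and 686 FPKM, made up most of it. All 7 fibroblast and meninges markers were lower at puberty, 5 past 1.5-fold, with sums of 75.9 and 44.7 FPKM. The thalamus sum was 153 and 123 FPKM, the telencephalon sum 7.90 and 4.31 FPKM, the pituitary sum 37.0 and 50.8 FPKM and the choroid plexus sum 40.3 and 35.4 FPKM. The choroid plexus markers split into 3 higher and 3 lower, and the pituitary markers into 5 higher and 1 lower. Lower were 3 of 4 thalamus markers and both telencephalon markers with a mean FPKM of at least 1. Prl was listed at 0 before puberty and at 3.40 FPKM at puberty, and Fshb and Lhx3 were listed at 0 before puberty. Sums for immature neurons (22.3 in both) and for tanycytes and ependyma (83.9 and 83.4) were near equal, but their genes went both ways, with 2 higher and 1 lower in the former and 1 higher and 2 lower in the latter. The part of tissue make-up in the differences of the members was not tested.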

How the data were processed

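RNA from rat hypothalamus was sequenced as strand-specific paired-end libraries, with 1 deposited value per stage. Reads had been aligned by TopHat and transcripts built by Cufflinks, and the authors deposited FPKM per transcript from Cuffdiff (both version 2.1.1 per the submitters' processing notes, which name Rnor_5.0, whereas the methods link a later annotation). How 3 rats became 1 value is not stated in the sources used here. Columns with the authors' ratios, p-values and q-values were not used. The members and gene lists were chosen with earlier results of these data known.

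FPKM were summed per gene symbol. Ratios were log2 of FPKM + 1, and shares over all genes used the 13612 genes with a mean FPKM of at least 1. FPKM values of low single-transcript genes of at least 1000 nt were fitted as whole fragments, and 95.0% and 94.9% of 1299 and 1485 values came within 0.1 of a whole number, which gave the depths. Intervals used this fit and cover counting error only. Calculations used scipy 1.17.1, pandas 2.3.3 and numpy 2.4.6 under Python 3.11.15, with matplotlib 3.10.9 for plots. Named genes were the members, the extremes of each gene list other than markers (up to 3 per direction among other imprinted genes, up to 2 elsewhere), known partners, and Col1a2, added after its values were seen. Promoter and microRNA sequences came from RefSeq (GRCr8). Alternatives were a pseudocount of 0.1, a minimum level, the highest transcript alone, scaling to equal medians or equal Actb, the second FPKM table, calls at 1.2-fold and 2-fold, and centring by length.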

Additional observations from a re-analysis of the deposited data

How the results depend on the processing

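No paired analysis was possible because each stage has 1 library, and no replicate could be left out. No member passed 1.5-fold under any of the settings run at that fold. A call at 1.2-fold took in 1 member, Mkrn3, lower at puberty, where 15.3% of all genes were lower by that fold, and a call at 2-fold took in 0. Other imprinted genes past 1.5-fold numbered 2, and became 5 (1 higher, 4 lower) with a pseudocount of 0.1 and 0 at 2-fold. Among the 27 with a mean FPKM of at least 1 the pseudocount left the count at 2, with 2.68% of all genes then higher and 4.06% lower. Equal Actb, a scale set by a single gene, gave 3 higher and 0 lower and moved the median log2 ratio of the members from −0.08 to 0.28. On that scale Mkrn3, at −0.13, no longer passed 1.2-fold. Ndn, Nnat, Snrpn, Dlk1 and Grb10 (0.28 to 0.56) were instead higher past it. Equal medians needed a factor of 1.02. The length centring was chosen after the data had been seen. Counting depth limits Mkrn3 most, and the spread between rats is unknown for every member.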
